A study of Mus musculus with 6 samples.

Results

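The mitochondrial respiratory chain was followed through its nuclear-encoded subunits and assembly factors. Members were the non-control probes whose current gene symbol begins with Nduf (complex I), Sdha to Sdhd (complex II), Uqcr (complex III), Cox4 to Cox8 (complex IV) or Atp5 (complex V, the ATP synthase). The rule gave 62 probes for 61 genes, out of 20868 probes and 9354 named genes on the array, and 60 of the 61 genes were protein-coding. The exception was Atp5l-ps1, a pseudogene of an ATP synthase subunit. Atp5pb, a stalk subunit of the ATP synthase, had a pair of probes and every other gene had 1 under this rule. All 62 probes passed the filter on dim probes.

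Complexes I to IV pass electrons from NADH and succinate to oxygen and, except for complex II, pump protons across the inner mitochondrial membrane. Complex V uses that gradient to make ATP. Liver is rich in mitochondria, and hepatocytes use the ATP for gluconeogenesis and urea synthesis, among other work. Several complex IV subunits exist as pairs of isoforms, one found in most tissues and the other mainly in muscle, brown fat or lung.

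All RNA came from mice of the C3H/HeNCrlBR(C3He) background at 39 weeks of age. Every group, controls included, had been given diethylnitrosamine (DEN), which starts liver tumours. CAR is a nuclear receptor encoded by Nr1i3 that phenobarbital (PB) activates, and PB in the drinking water promotes tumours in mice. The groups were wild-type (WT) liver after DEN and PB, WT liver tumour after DEN and PB, liver of CAR-knockout (CAR-KO) mice given both agents, and CAR-KO liver after DEN alone. The 3 direct comparisons were made on 6 arrays with red (Cy5) and green (Cy3) dyes, each on 2 arrays with the dyes swapped. They set WT against CAR-KO liver, PB against no PB within CAR-KO liver, and WT tumour against CAR-KO liver with PB. Whether the dye swaps repeated the same extracts, and how many mice or pools gave RNA, is not in the labels, so the p-values rest on a spread between swapped arrays, pooled over the 3 pairs, that may be technical only. A 4th comparison, WT tumour over WT liver, was indirect: no array held both, and it was taken as the difference of their ratios to CAR-KO liver.

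Median signals ran from 129.4 to 493.5 per channel. Median background was 53 to 62 on 5 arrays, and 288 (green) and 299 (red) on array 2 of the tumour pair. Nr1i3 had a log2 ratio of 0.79 ± 0.16 (SE, n = 2 arrays) in WT over CAR-KO liver and was not called (limma adjusted p = 0.412), and of 1.81 ± 0.16 in WT tumour over CAR-KO liver (adjusted p = 0.00194). The sources used here do not place its probe inside or outside the deletion, so these values do not check the labels. Of 12 hepatocyte markers listed, 5 were measured, and each was well above background in both channels on all 6 arrays.

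Most respiratory chain genes were bright. In 61 of the 62 probes both channels were well above background on all 6 arrays, against 78.9% of all probes, and the exception was Atp5l-ps1. No member spot was saturated or carried an outlier flag. The mean log2 signal had a median of 11.06 over the members and 7.20 over all probes tested. In whole-tissue RNA, fewer cells of a type and less RNA per cell cannot be told apart.

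No member passed the test in any comparison. The test was limma with Benjamini-Hochberg adjustment over the 20744 probes tested, and a probe was called at an adjusted p under 0.05. The percent of all probes called was 0.101% in WT over CAR-KO liver, 0.0% for PB over no PB in CAR-KO liver, 3.36% in WT tumour over CAR-KO liver and 0.0% in WT tumour over WT liver. In the direct comparisons with calls, 0.0916% of probes were called higher and 0.00964% lower in WT over CAR-KO liver, and 2.53% higher and 0.839% lower in WT tumour over CAR-KO liver. At an unadjusted p under 0.05 the members numbered 0, 12, 9 and 0 of 62 in those comparisons (0.0%, 19.4%, 14.5% and 0.0%), against 2.27%, 2.72%, 23.4% and 8.37% of all probes. Without a dye effect in the fit, the 12 was 1 and the 9 was 6. By direction, the shares of all probes higher and lower were 1.81% and 0.458% for WT over CAR-KO liver and 4.53% and 3.85% for tumour over WT liver. Standard errors of the members in the direct comparisons ran from 0.15 to 0.30, with a median of 0.18.

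**Figure D1:**
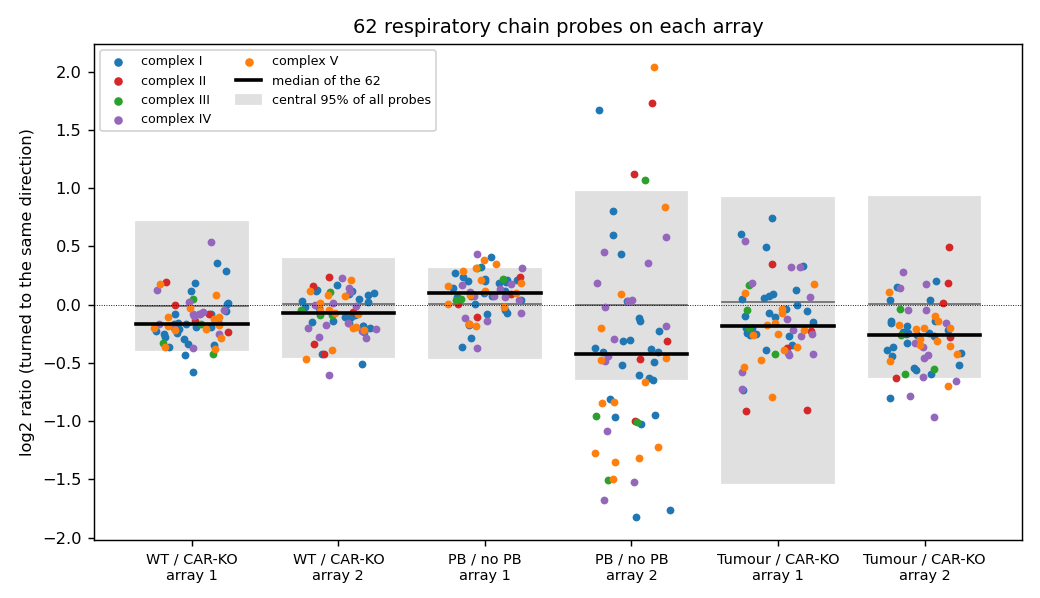
Log2 ratio of the 62 respiratory chain probes on each of the 6 arrays, 1 point a probe coloured by complex. Thick bars are the member medians, thin grey lines the medians of all probes and grey boxes their central 95%. On array 2 of the PB pair the points run from -1.83 to 2.04, while on the other 5 arrays no member lies past 2-fold. The tumour medians of -0.18 and -0.26 hold under loess and rise to 0.67 and -0.03 with median centring.

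After DEN and PB, no respiratory chain gene of the liver differed by a called amount between mice with and without CAR. Their log2 ratios of WT over CAR-KO liver ran from -0.29 to 0.13, and the 95% interval of all 62 probes lay within 2-fold of no difference (97.7% of all probes). Within 1.5-fold lay 35 of the 62 (70.6% of all probes). The median over the 61 genes was -0.12, against -0.02 over all probes, and 51 of the 62 probes were below 0 (55.0% of all probes). On both arrays below 0 were 29 members, or 46.8%, against 22.5% of all probes, and 2 were above 0 on both (20.4% of all probes). The member median was -0.16 on array 1 and -0.08 on array 2. The fit with a dye effect gave 0.053 without array 2 of this pair and -0.28 without array 1, so in that fit the lean to the lower side was lost without array 2.

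The lowest member was Sdhd, a membrane anchor of complex II, at -0.24 and -0.34 on the 2 arrays (log2 ratio -0.29 ± 0.18, SE). Ndufb4, an accessory subunit of complex I, was at -0.34 and -0.20 (-0.27 ± 0.16). Ndufa12, another such subunit, was at -0.28 and -0.24 (-0.26 ± 0.17). Uqcrfs1, the Rieske iron-sulfur protein of complex III, was at -0.42 and -0.09 (-0.26 ± 0.20). Each of these 4 genes was below 0 on both arrays, and none passed the test (limma adjusted p of 1 for each).

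At the other end, the arrays of a pair often fell on opposite sides of 0. Cox8b, the complex IV isoform of muscle and brown fat, was at 0.54 and -0.28 (0.13 ± 0.26). Sdhc, the other membrane anchor of complex II, was at 0.19 and -0.06 (0.06 ± 0.21). Uqcr11, a small subunit of complex III, and Cox6a1, the widely expressed isoform of a complex IV subunit, were the members above 0 on both arrays. Uqcr11 was at 0.05 and 0.11 (0.08 ± 0.20) and Cox6a1 at 0.02 and 0.11 (0.07 ± 0.16). Adjusted p was 1 for all 4.

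By complex, the medians of WT over CAR-KO liver ran from -0.21 for the 3 complex II subunits to 0.04 for the 2 complex II assembly factors. The 4 complex III genes had a median of -0.16, the 2 core subunits of complex I -0.05 and its 3 assembly factors -0.03. The 20 accessory subunits of complex I had a median of -0.13 with 19 below 0, and the 14 complex IV genes a median of -0.14 with 10 below 0. The 4 genes of the F1 part of the ATP synthase (Atp5a1, Atp5b, Atp5c1 and Atp5e) were all below 0 (median -0.15), as were 8 of its 9 other genes (median -0.12). Those assembly factors, Sdhaf2 and Sdhaf4, were at 0.04 and 0.05.

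Adding PB to DEN in the absence of CAR gave 2 arrays that did not match for these genes. On array 1 the members ran from -0.37 to 0.43, with a median of 0.10 and an SD of 0.18 (all probes 0.20). On array 2 they ran from -1.83 to 2.04, with a median of -0.42 and an SD of 0.84 (all probes 0.41). Past 2-fold on array 2 were 19 members, or 30.6%, against 3.03% of all probes. On array 1 no member passed 2-fold, and the largest ratio among those 19 was 0.38 in size.

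Atp5b, the catalytic beta subunit of the ATP synthase, was at -0.18 on array 1 and 2.04 on array 2. Sdhb, the iron-sulfur subunit of complex II, was at -0.11 and 1.73. Ndufv1, the complex I subunit that binds NADH, was at -0.08 and 1.67. All 3 were high on array 2 alone. The other high members past 2-fold on array 2 were Sdhc (-0.16 and 1.12) and Uqcrc1, a core protein of complex III (0.05 and 1.07).

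The low side held 14 members, of complexes I, III, IV and V and the assembly factor Sdhaf4. Ndufb3 of complex I was at 0.19 on array 1 and -1.83 on array 2, the lowest value of any probe tested on that array. Ndufa1, a small membrane subunit of complex I, was at 0.32 and -1.76, and Cox6c of complex IV at 0.11 and -1.68. Uqcrb of complex III was at 0.22 and -1.51. Probes without a symbol, but described as the ubiquinol-cytochrome c reductase binding protein that Uqcrb encodes, did not show this. They were at -0.01 and -0.11, and at 0.07 and 0.49, on arrays 1 and 2. All 14 low members were above 0 on array 1, from 0.04 to 0.38, and 18 of the 19 members past 2-fold had opposite signs on the 2 arrays. Members made up 6 of the 20 lowest probes of array 2, 14 of the 151 probes under -1, and 5 of the 477 over 1.

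Complexes I, III and V had members at both ends. Complex I had Ndufv1 high and Ndufb3, Ndufa1 and Ndufa5 low. Complex III had Uqcrc1 high and Uqcrb and Uqcrfs1 low, and complex V had Atp5b high and Atp5mpl, Atp5pb, Atp5md, Atp5j and Atp5e low. Complex II had its subunits Sdhb and Sdhc high and the assembly factor Sdhaf4 low. Complex IV had low members (Cox6c, Cox7b and Cox7a2) and no high one past 2-fold.

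**Figure D2:**
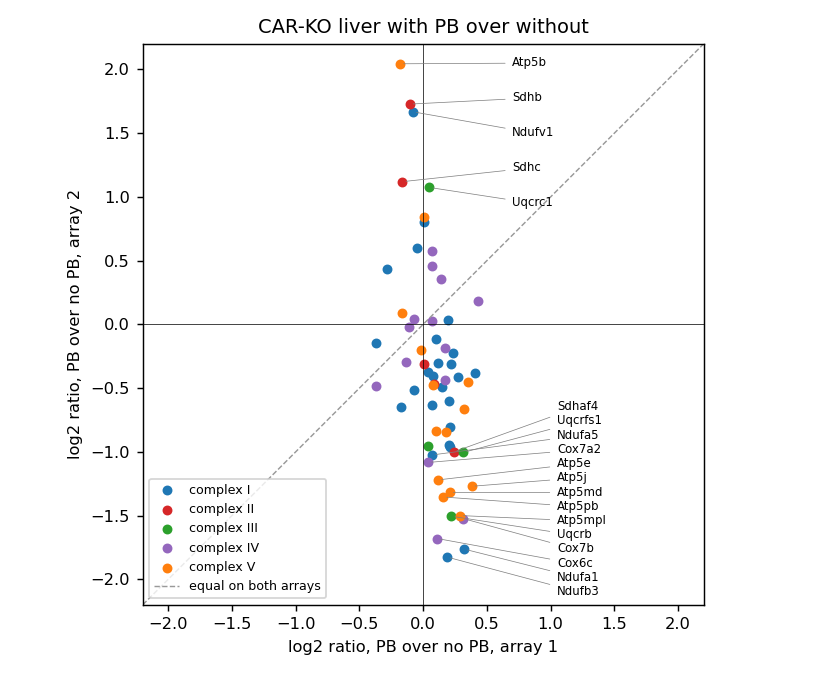
Log2 ratio of CAR-KO liver with PB over without on array 1 (x axis) and array 2 (y axis), 1 point a probe coloured by complex. The dashed line marks equal ratios, and the 19 probes past 2-fold on array 2 are named. Points spread along the y axis from -1.83 to 2.04 and little along the x axis.

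In the fit, which averages the pair, the ends were Atp5b at 0.93 ± 0.30, Sdhb at 0.81 ± 0.27, Ndufv1 at 0.79 ± 0.28 and Uqcrc1 at 0.56 ± 0.21. The low end was Ndufb3 at -0.82 ± 0.28, Cox6c at -0.78 ± 0.28, Ndufa1 at -0.72 ± 0.26 and Uqcrb at -0.64 ± 0.26. None passed the test (limma adjusted p of 1 for each), although 12 members had an unadjusted p under 0.05, 5 higher (8.06%, against 2.21% of all probes) and 7 lower (11.3%, against 0.516%). The count of 12 depended on the setting. It was 1 without a dye effect in the fit, 1 with the arrays of the pair alone and 0 with the Agilent processed signals. With array weights it was 20. The median over the 61 genes was -0.17, and it was 0.05 over the 62 probes without array 2 of this pair. The 95% interval lay within 2-fold for 48 of 62 probes (97.1% of all probes) and within 1.5-fold for 19 (69.6%). Below 0 were 45 of 62 (52.3% of all probes). Below 0 on both arrays were 7 members (18.0% of all probes) and above 0 on both 9 (18.8%).

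On array 2 of the PB pair the red channel held RNA after DEN alone, and 84.4% of spots were well above background in red, the lowest share of any channel. The summed signal of the 5 hepatocyte markers was 4392.1 in that channel and 14915.7 in the green one, against 14133.2 (DEN alone) and 26566.4 (with PB) on array 1. The muscle list (1218.0 in red, 3335.3 in green) and the fat list (795.2 and 1644.3) were lower in that red channel too. The dye ratio of the same probes was therefore set beside it. All 19 members past 2-fold on that array had a red over green ratio of the same sign as their mean over the other 5 arrays, and 553 of 626 such probes did among all probes. Across the 62 members, red over green on that array and the mean over the other 5 arrays had a Pearson r of 0.59 and a Spearman rho of 0.60 (0.33 and 0.35 across all probes). These are descriptions across probes that share the 2 dyes, the labelling and the brightness, and carry no p. Atp5b was lower in red than in green on all 6 arrays, from -2.04 to -0.09, whichever RNA was red. Ndufb3 was higher in red on all 6, from 0.06 to 1.83, and so was Ndufa1, from 0.09 to 1.76. Other members past 2-fold did not keep the same sign on every array. Over the other 5 arrays Sdhb ran from -0.92 to 0.63, Ndufv1 from -0.39 to 0.24 and Cox6c from -0.22 to 0.65.

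Over the 6 arrays, red was above green for 6 members on every array (4.46% of all probes were so) and below it for 3 (5.12%). The dye effect of the fit was called for no member (limma) and 0.00964% of all probes, and had an unadjusted p under 0.05 for 21 members, or 33.9%, against 12.9% of all probes. The part of the dye in the PB values was not tested.

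**Figure D3:**
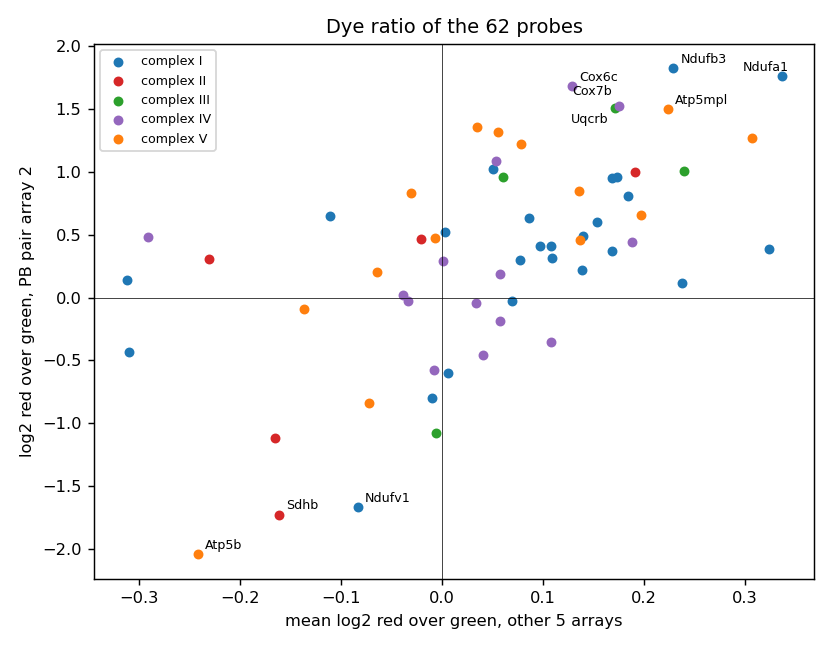
Log2 red over green of the 62 probes on array 2 of the PB pair (y axis) against their mean over the other 5 arrays (x axis, narrower scale), coloured by complex. Atp5b, Sdhb and Ndufv1 lie at the lower left and Ndufb3, Ndufa1 and Cox6c at the upper right, and all 19 probes past 2-fold have the same sign on both axes.

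In WT tumour against CAR-KO liver, genotype and tissue state differ at once. No respiratory chain gene passed the test, whereas 698 probes did, and the members leaned lower: 51 of 62 had a ratio below 0 (50.6% of all probes). The median over the 61 genes was -0.24, against -0.01 over all probes. This direction depended on the normalization: with each array centred on its median in place of loess the median of the 62 probes was 0.31, and 6 members were called higher and 2 lower. That setting also moved the calls over all 20744 probes from 524 higher and 174 lower to 2375 higher and 1781 lower. With it, a larger share of all probes than of members was called in each direction. With median centring the member medians of the tumour arrays were 0.67 and -0.03, and with loess they were -0.18 and -0.26. Loess removes any trend of the ratio with brightness, and these probes were brighter than most; the part of brightness in the turn was not tested.

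With loess, 39 of 62 members were below 0 on both tumour arrays, or 62.9%, against 28.5% of all probes, and 6 were above 0 on both (30.6% of all probes). The 95% interval lay within 2-fold of no difference for 57 of the 62 (85.2% of all probes) and within 1.5-fold for 15 (39.1%). All 9 members with an unadjusted p under 0.05 were lower, or 14.5% of members against 12.0% of all probes, and 0 were higher (11.4%).

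Sdhb was the lowest member in the tumour, at -0.92 and -0.63 on the 2 arrays (log2 ratio -0.77 ± 0.27, SE; limma adjusted p = 0.152). Cox7a2, the widely expressed isoform of a complex IV subunit, was at -0.57 and -0.78 (-0.68 ± 0.21, adjusted p = 0.131, the smallest of any member). Cox5a, another complex IV subunit, was at -0.72 and -0.37 (-0.54 ± 0.18, adjusted p = 0.147). All 3 were low on both arrays. Without array 2 of the tumour pair Cox7a2 was at -0.86, and over the 15 alternatives it ran from -0.86 to -0.03. With median centring Cox5a turned to 0.10.

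The highest member was Ndufaf5, an assembly factor of complex I, at 0.75 and 0.15 (0.45 ± 0.20, limma adjusted p = 0.219). Its signals above background were dim, between 39.3 and 147.4 over all channel readings. Before normalization they were 100.5 (tumour) and 114.9 (CAR-KO liver) on array 1 of the tumour pair. Cox7a2l, which takes part in joining complexes III and IV, was at 0.55 and 0.14 (0.34 ± 0.15, adjusted p = 0.229). Cox6a1 was at 0.32 and 0.28 (0.30 ± 0.16, adjusted p = 0.307) and Ndufs4, an iron-sulfur protein family member of complex I, at 0.50 and 0.04 (0.27 ± 0.20, adjusted p = 0.439). Each was above 0 on both arrays. Cox7a2l, Cox6a1 and Ndufs4 were called with median centring, at 0.99, 1.03 and 0.86 (adjusted p of 0.00872, 0.0124 and 0.0236; up to 0.61, 0.836 and 0.726 over the other alternatives). In that setting a larger share of all probes than of members was called higher.

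**Figure D4:**
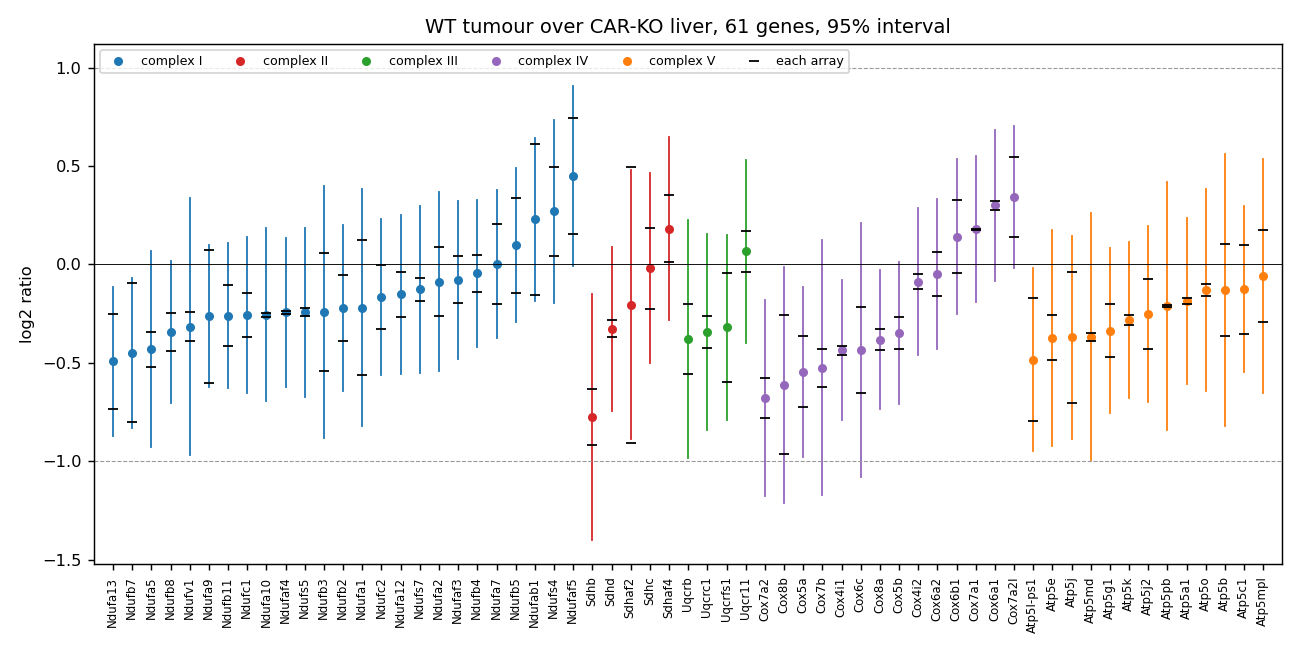
Log2 ratio of WT tumour over CAR-KO liver for the 61 genes (1 probe a gene, ordered within each complex), with 95% intervals as coloured lines and the 2 arrays as black ticks. Dashed lines mark 2-fold. Sdhb is lowest at -0.77 and Ndufaf5 highest at 0.45 under loess. With median centring the member median is 0.31, so the lean to the lower side depends on the normalization.

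By complex, the tumour ratios under loess were lowest for complex IV, with a median of -0.37 over 14 genes and 10 below 0. Complexes II and III followed, at -0.33 over 3 genes and -0.33 over 4 genes. Of complex I, 16 of 20 accessory subunits were below 0 (median -0.23), as were both core subunits measured. The 4 F1 genes of the ATP synthase (median -0.16) and its 9 other genes (median -0.28) were below 0. No complex had a called member, the differences between complexes were not tested, and with median centring the direction turned for the members as a whole.

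The isoform pairs of complex IV gave different values within the same tumour arrays. Cox4i1, the main isoform of subunit 4, was at -0.41 and -0.46 (-0.44 ± 0.15, limma adjusted p = 0.154), and Cox4i2, its lung isoform, at -0.13 and -0.05 (-0.09 ± 0.16). Cox6a1 was above 0, as given, and its muscle isoform Cox6a2 was at 0.06 and -0.16 (-0.05 ± 0.16). Cox7a2 was low, and its muscle isoform Cox7a1 was at 0.18 and 0.18 (0.18 ± 0.16). Cox8a, the widely expressed form, was at -0.44 and -0.33 (-0.38 ± 0.15, adjusted p = 0.189). Cox6b1, a subunit that links complex IV monomers, was at 0.33 and -0.04 (0.14 ± 0.17). With median centring Cox4i1, Cox6a2 and Cox8a turned to 0.27, 0.04 and 0.30, and Cox6a2 was 0.0021 with the Agilent processed signals. Cox4i1 and Cox8a were low on both arrays, Cox7a1 and Cox6a1 were above 0 on both, and no difference within a pair was tested. The isoforms differed in brightness. Over all channel readings the signals were 22.4 to 129.1 for Cox4i2, 134.4 to 349.8 for Cox6a2 and 92.2 to 327.9 for Cox7a1. Those of Cox4i1 were 3660.4 to 12183.3. The part of brightness in these values was not tested.

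Cox8b was at -0.26 on array 1 and -0.96 on array 2 of the tumour pair (-0.61 ± 0.26, limma adjusted p = 0.208). Its value rested on array 2: it was -1.29 without array 1 and 0.07 without array 2. Unlike most members it was lower with median centring too, at -0.75 (adjusted p = 0.047). Its signals above background were dim, between 29.8 and 177.0 over the 12 channel readings.

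Some muscle and fat markers were called lower in the same comparison. Of 20 skeletal muscle markers measured, a list that holds Cox6a2, Cox7a1 and Cox8b themselves, 4 were called lower (0.839% of all probes were) and 0 higher, with a list median of -0.05: Tnnc2 at -1.83 ± 0.15 (limma adjusted p = 0.00163), Myh2 at -1.44 ± 0.22 (adjusted p = 0.0153), Mylpf at -1.25 ± 0.15 (adjusted p = 0.00612) and Tnni2 at -1.01 ± 0.19 (adjusted p = 0.0335). Of 7 fat markers, 2 were called lower: Ucp1, the uncoupling protein of brown fat, at -1.37 ± 0.20 (adjusted p = 0.0122), and Cidea at -0.91 ± 0.16 (adjusted p = 0.0247). Tnnc2, Mylpf and Ucp1 were each called in 13 of the 15 alternatives, Myh2 in 11, Tnni2 in 5 and Cidea in 4. The summed signals before normalization were 3312.0 (CAR-KO liver) and 1844.2 (tumour) on array 1 and 3706.9 and 3354.4 on array 2 for the muscle list. For the fat list they were 1557.9 and 1661.1 on array 1 and 1929.2 and 3816.0 on array 2. Between 17 and 19 of the 20 muscle markers and 6 to 7 of the 7 fat markers were well above background in each channel of those arrays. Their part in the Cox8b value was not tested.

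In WT over CAR-KO liver, Tnnc2 was called lower as well (-1.78 ± 0.15, limma adjusted p = 0.00746) and stayed so in 9 of the 15 alternatives, while Cox6a2 was at -0.07 ± 0.16 and Cox7a1 at -0.15 ± 0.16. No muscle or fat marker was called in the other comparisons.

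Set against WT liver, the tumour had no called member, and none of all probes was called (limma; 8.37% at an unadjusted p under 0.05). The values share the CAR-KO controls with those above. Cox8b was lowest, at -0.74 ± 0.36 (limma adjusted p = 0.602), followed by Sdhb at -0.56 ± 0.38, Atp5l-ps1 at -0.54 ± 0.28 and Cox7a2 at -0.49 ± 0.30. Ndufaf5 was highest, at 0.43 ± 0.28, followed by Ndufab1, the mitochondrial acyl carrier protein of complex I, at 0.40 ± 0.25, Cox7a1 at 0.33 ± 0.22 and Cox6b1 at 0.32 ± 0.24. Below 0 were 45 of 62 (50.9% of all probes), with a median of -0.11 over the 61 genes. The 95% interval lay within 2-fold for 48 members (73.1% of all probes) and within 1.5-fold for 1 (8.59% of all probes). With median centring the median of the 62 probes was 0.57, and without array 1 of the WT pair or of the tumour pair it was 0.074 and 0.018. Without array 1 of the tumour pair Cox8b was at -1.43, and without array 2 Atp5l-ps1 was at -0.98. Over the alternatives Cox8b ran from -1.43 to -0.06 and Atp5l-ps1 from -1.31 to -0.10. On array 1 of the tumour pair the tumour signal of Atp5l-ps1 was 18.3 and was not well above background.

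**Figure D5:**
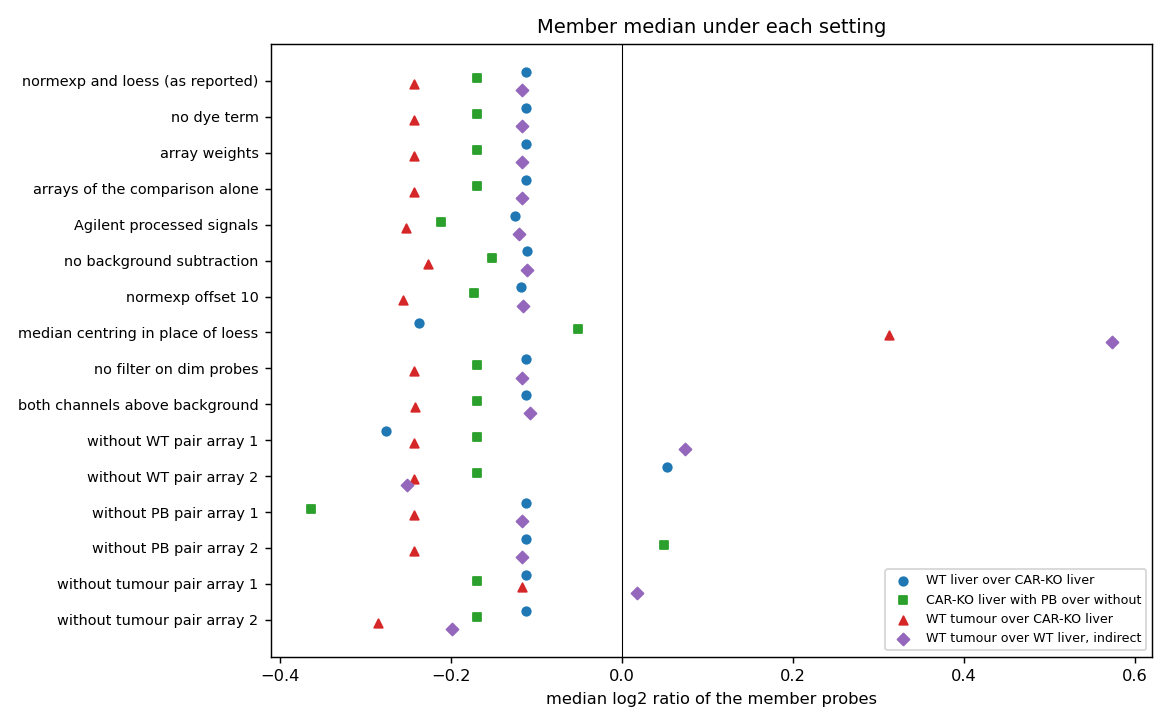
Median log2 ratio of the member probes (x axis) in the 4 comparisons under the reported setting and 15 alternatives (y axis), 1 marker a comparison. Median centring moves the tumour medians from -0.24 to 0.31 and from -0.12 to 0.57, while leaving out array 2 of the WT pair or of the PB pair takes that pair's own median above 0, to 0.053 and 0.049.

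Some genes around the chain were called in the tumour comparison, in which 2.53% of all probes were called higher and 0.839% lower. The lists were written with earlier results of these data known, so their counts are descriptions. Of 11 tricarboxylic acid cycle genes measured, 3 were called higher and 0 lower: Cs, citrate synthase, at 1.59 ± 0.16 (1.46 and 1.71 on the 2 arrays, limma adjusted p = 0.00319), Idh3a of isocitrate dehydrogenase at 0.92 ± 0.17 (adjusted p = 0.0356) and Pdha1 of pyruvate dehydrogenase at 0.81 ± 0.16 (adjusted p = 0.0413). The list's median was 0.43. Prdx3, a mitochondrial peroxidase, was the called one of 8 mitochondrial antioxidant genes, at 1.37 ± 0.15 (adjusted p = 0.00477). Of 18 glycolysis genes 2 were called, both higher: Pdk4, a kinase that inhibits pyruvate dehydrogenase, at 1.38 ± 0.18 (adjusted p = 0.00977), and the hexokinase Hk2 at 0.92 ± 0.16 (adjusted p = 0.0249). All 6 of these genes kept their sign under the 15 alternatives, but Pdha1 stayed called in 4, Hk2 in 5 and Idh3a in 7 of them, against 13 for Cs, 13 for Prdx3 and 11 for Pdk4.

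Calls on the low side were Sqor, which passes electrons from sulfide to ubiquinone, at -0.95 ± 0.15 (limma adjusted p = 0.0182), 1 of 6 genes of electron carriers and entry, and Ppargc1b, a coactivator of mitochondrial genes, at -0.93 ± 0.16 (adjusted p = 0.0261), 1 of 11 biogenesis regulators. Each stayed called in 6 of the 15 alternatives. None of 4 complex IV assembly genes or 14 import and carrier genes was called. Among markers of other liver cells, Ass1 (hepatocyte, -1.47), Hba-a1 (erythroid, -1.09) and Dcn (stellate cell and fibroblast, -1.34) were called lower and Krt19 (cholangiocyte, 1.13) higher. Each was the only called marker of its list, of 5, 4, 5 and 5 markers measured in that order. The list medians were -0.21, -0.30, -0.02 and 0.03, with 4, 2, 3 and 2 markers below 0. Ass1 and Hba-a1 stayed called in 8 alternatives each, and Dcn and Krt19 in 9 each. In the PB and the indirect comparison no gene of these lists was called.

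A further 19 probes lack a symbol here but carry a description of a respiratory chain subunit, and were described apart. Their medians were -0.13, -0.30, -0.30 and -0.19 in the 4 comparisons in the order above, and 0 were called. The lowest tumour value was that of the complex III hinge protein, at -0.49 and -1.17 (-0.83 ± 0.20, limma adjusted p = 0.076). On array 2 of the PB pair an ATP synthase delta chain probe was at 2.22 (array 1, -0.02) and a probe for subunit II of cytochrome c oxidase, which the mitochondrial genome encodes, at -1.15 (array 1, 0.09).

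Many respiratory chain promoters carry sites for NRF1 and for ETS factors such as GABPA, which control nuclear genes of mitochondria. RefSeq promoter windows (GRCm38.p6, 250 bases before to 50 after the start) matched 51 of the 61 genes, with 55 windows. On either strand the palindromic NRF1 consensus was in 13 member windows, or 23.6%, against 4.6% of all 32851 windows, and the ETS motif CCGGAAG in 12, or 21.8%, against 8.86%. The CCAAT box (CCAAT) was in 36.4% of member windows and 37.4% of all, and the ERRA motif TCAAGGTCA in 1 member window, that of Sdhd (1.82% against 0.423%). None of these motifs contains another. Member windows also had more C and G, with a median of 59.0% against 52.7%. They had more CG pairs of letters too, with a median of 20 a window against 7, and the NRF1 and ETS motifs hold such pairs. The part of base content in the motif shares was not tested. Windows of 60 bases around the NRF1 match, upstream of the start, are shown for 4 members named above, 5′ to 3′ on the gene's strand, with the NRF1 match in capitals. They lie on the minus strand at chr9:50603894-50603953 (Sdhd), chr16:37654525-37654584 (Ndufb4), chr5:115349086-115349145 (Cox6a1) and chr6:24527682-24527741 (Ndufa5).
Sdhd: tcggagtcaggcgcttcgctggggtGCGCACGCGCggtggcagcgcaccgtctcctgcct
Ndufb4: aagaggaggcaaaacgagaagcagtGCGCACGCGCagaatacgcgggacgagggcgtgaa
Cox6a1: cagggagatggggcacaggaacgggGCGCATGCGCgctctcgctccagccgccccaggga
Ndufa5: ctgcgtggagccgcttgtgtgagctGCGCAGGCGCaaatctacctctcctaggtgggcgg
These 4 genes had ratios on both sides of 0: in the tumour comparison Sdhd was at -0.33, Ndufb4 at -0.05, Cox6a1 at 0.30 and Ndufa5 at -0.43. The 12 genes with an NRF1 match had a tumour median of -0.19 under loess, with 9 below 0, and the 39 matched genes without it -0.26, with 31 below 0. For WT over CAR-KO liver these medians were -0.10 and -0.13. A match is a description of letters in these windows.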

How the data were processed

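RNA of mouse liver or liver tumour was hybridised to 6 Agilent arrays with 2 dyes in 3 dye-swapped pairs. Per the file headers, the authors scanned spot intensity values with Agilent Feature Extraction 7.1.1 (5 arrays) or 7.5.1 (1 array), while the submitters' processing notes name 7.5. The authors' deposited log10 ratios (red over green, from background-subtracted, dye-normalized signals) equal the series value table and served as an alternative only through their processed signals. A genome build for the arrays is not given in the sources used here.

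The scanner mean intensities were background-corrected here with normexp (offset 50) and normalized within arrays by loess (span 0.3, control and outlier-flagged spots at weight 0) in limma 3.58.1 (R 4.3.3). Spots of a probe were averaged. Outlier-flagged spots, 6 to 55 an array, were set missing. Probes well above background in at least 1 channel on 2 or more arrays were tested, 20744 in all. One limma model held the 3 pairs and a dye effect per probe, with 2 residual and 5.48 prior degrees of freedom. P-values were adjusted by Benjamini-Hochberg over all tested probes. The fit was tested on simulated data.

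Symbols came from RefSeq accessions or bracketed descriptions: 58 member probes by accession and 4 by description. Members and lists were chosen with earlier results of these data known. The rule for naming took, in each comparison, the 4 highest and 4 lowest members, the complex IV isoform pairs and called genes of the lists. The isoform pairs are set out together for WT tumour over CAR-KO liver only. Cox6b2, Ndufa4l2 and Atp5if1, also named in that rule, had no member probe and were not analysed here; Ndufa4 was read only through a probe without a symbol, described apart. The number of arrays limits the precision. Alternatives changed the dye term, array weights, arrays in the fit, signals, background, offset, normalization and filter, or left out 1 array.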

Additional observations from a re-analysis of the deposited data

How the results depend on the processing

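Each ratio compared the 2 RNAs on the same array. No further pairing of arrays across comparisons was possible, because the labels give no replicate numbers (they were given in accession order) and each pair has its own arrays. Each pair has 2 arrays, which limits the precision. Of 884 values of named members under alternatives, 32 had another sign and 8 passed the threshold; the cause was not tested. Leaving out 1 array keeps the lone array's spread at that of the other pairs.

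With median centring in place of loess, the member median was -0.24 in WT over CAR-KO liver, 0.31 in tumour over CAR-KO liver (6 members higher, 2 lower) and 0.57 in tumour over WT liver. Those 6 and 2 were smaller shares than the shares of all probes called higher and lower. Signs turned with median centring for Sdhc (-0.025), Cox6a1 (-0.11) and Uqcr11 (-0.068) in WT over CAR-KO liver and for Cox4i1 (0.20) with PB. They also turned in tumour over CAR-KO liver for Cox5a (0.10), Cox4i1 (0.27), Cox6a2 (0.037) and Cox8a (0.30), and in tumour over WT liver for Sdhb (0.18), Cox7a2 (0.29), Cox4i1 (0.56) and Cox8a (0.59). With offset 10, Cox4i1 was 0.042 with PB, and with the Agilent processed signals Cox6a2 was 0.0021 in the tumour. Calls over all probes in tumour over CAR-KO liver, 524 higher and 174 lower, were 0 and 0 with the processed signals, 194 and 42 with array weights, 53 and 9 with the arrays of the pair alone, and 1799 and 2909 without array 2 of the tumour pair.

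Leaving out each array in turn, the member median ran from -0.28 (without array 1 of the WT pair) to 0.053 (without its array 2) in WT over CAR-KO liver, from -0.36 to 0.049 with PB, from -0.29 to -0.12 in tumour over CAR-KO liver and from -0.25 to 0.074 in tumour over WT liver. Members called lower ran from 0 to 5 and from 0 to 2 in the tumour comparisons, with 1 and 1 without tumour array 1 and 5 and 2 without tumour array 2. Leaving out a tumour array leaves 1 array in that pair. Without tumour array 2 a larger share of all probes than of members was called lower in both tumour comparisons. Without tumour array 1 the share was larger among members, through 1 member. These counts therefore do not set the members apart. In WT over CAR-KO liver the ranges were -0.56 to 0.046 for Uqcrfs1, -0.23 to 0.36 for Sdhc, -0.0595 to 0.19 for Cox6a1, -0.19 to 0.35 for Uqcr11, -0.33 to 0.59 for Cox8b, -0.16 to 0.013 for Cox6a2, -0.51 to 0.13 for Cox7a2 and -0.42 to 0.067 for Cox6b1. With PB they were -1.35 to 0.063 for Uqcrb, -0.16 to 0.15 for Cox4i2 and -0.029 to 0.13 for Cox8a. In tumour over CAR-KO liver they were -1.29 to 0.075 for Cox8b, -0.26 to 0.089 for Cox4i2, -0.17 to 0.075 for Cox6a2 and -0.0595 to 0.34 for Cox6b1, and in tumour over WT liver -0.31 to 0.043 for Cox4i2 and -0.10 to 0.15 for Cox6a2.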
